A study of Mus musculus with 16 samples.

Results

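The 10 genes described here encode the enzymes that write and erase cytosine methylation and the core of Polycomb repressive complex 2 (PRC2), in mouse neural stem cells. They were chosen by name for these roles, with earlier results of these data known, and are 10 of the 57132 genes in each count file. They comprise the DNA methyltransferases Dnmt1, Dnmt3a and Dnmt3b with the DNMT1 partner Uhrf1, the dioxygenases Tet1, Tet2 and Tet3, and the PRC2 genes Ezh2, Eed and Suz12. All 10 passed the filter on low counts, with 52 to 7773 reads per gene and library.

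DNA methylation at CpG sites is copied after replication by DNMT1, which UHRF1 brings to hemimethylated DNA, while DNMT3A and DNMT3B place methyl groups on unmethylated sites. TET enzymes oxidise 5-methylcytosine, which opens a route back to the unmodified base. PRC2 places methyl groups on lysine 27 of histone H3 and keeps developmental regulators of other lineages silent, and in neural stem cells both systems take part in holding the self-renewing state and in its loss on differentiation.

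Total RNA was sequenced in 12 libraries of mouse neural stem cells kept in self-renewing (growth factor) conditions, 6 with the agent named TAPIR, labelled gRNA, and 6 without it, labelled control. Each group had 3 libraries in batch 1 (gRNA 1 to 3, control 1 to 3) and 3 in batch 2 (gRNA 4 to 6, control 4 to 6). The numbers only name the libraries and pair none of them, also where libraries of the same number are left out together. The labels give no strain, sex, passage or guide target and do not explain TAPIR, so no targeted gene could be checked. No label ties the libraries of a group to different cultures, and p-values here reflect only the spread among these libraries, which may be technical. Nor do the labels say what distinguishes the batches.

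Totals ran from 8414028 to 19454390 assigned reads, with a median of 14918917, and none of the 66 pairs of libraries held identical counts. Reads that fell in no annotated feature made up 18.95 to 25.07% of those tallied in the batch 1 libraries and 8.83 to 12.7% in the batch 2 libraries. The neural stem cell markers Sox2 and Nes were not called between the batches. Across 14 such markers the summed level was 3080 to 4830 CPM (read counts scaled to a common library total) in batch 1 and 2696 to 3492 CPM in batch 2, and 8 fell and 1 rose. Only 4 of them fell without gRNA 1, control 2 or control 5, and 5 without gRNA 4, gRNA 5 or control 4. Summed markers of other cell types were 161.5 to 200.9 CPM in batch 1 and 308.3 to 564 CPM in batch 2 for the oligodendrocyte lineage, 624 to 1015 against 287 to 597 CPM for astrocytes, 786 to 1137 against 631 to 783 CPM for neurons, and 243 to 345 against 33.0 to 72.3 CPM for mesenchymal cells. Endothelial and mural markers summed to 67.9 to 170.5 against 3.95 to 8.59 CPM, and microglial markers to at most 6.62 CPM. Markers within a list did not move together. Of 10 listed neuron markers, 2 had a mean under 1 CPM in batch 1 and 6 in batch 2, while Tubb3 rose (log2 difference 2.34 ± 0.21, SE). Of 8 astrocyte markers 5 fell and 2 rose. Among mesenchymal markers the log2 difference was 1.36 ± 0.53 for Col1a1, -5.18 ± 0.55 for Col1a2 and -2.78 ± 0.14 for Prrx1. Control 3 and gRNA 3 stood apart in batch 1 through 4 Y-linked genes, which summed to 186.0 and 198.9 CPM against 83.2 to 100.9 CPM in the other libraries of that batch. In batch 2 the same genes held at most 0.07 CPM. Xist lay at 760.6 to 1188 CPM in batch 1 and at 1184 to 1485 CPM in batch 2. Control 6 stood apart in batch 2, with 2325 CPM summed over 29 S-phase genes against 3576 to 4344 CPM in the other 5 libraries. The part of these differences in the results below was not tested, and values without the libraries are given where a member's call or a list's count depends on them.

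Promoter sequence is shown first for the 2 members that differed most between the batches. RefSeq windows reaching from 250 bases before to 50 bases after each annotated start (build GRCm38.p6) were found for all 10 genes, 15 windows in all. The stretches below are 100 bases upstream of the start, on the gene's strand, with CpG sites in capitals; that of Dnmt3b lies at chr2:153649349-153649448 on the plus strand and that of Tet2 at chr3:133544391-133544490 on the minus strand.
Dnmt3b: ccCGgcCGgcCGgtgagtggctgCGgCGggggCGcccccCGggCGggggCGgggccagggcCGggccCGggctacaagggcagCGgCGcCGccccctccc
Tet2: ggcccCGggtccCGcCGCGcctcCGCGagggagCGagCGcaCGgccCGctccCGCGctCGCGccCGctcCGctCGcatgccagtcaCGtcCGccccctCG

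The stretch of Dnmt3b holds 14 CpG sites and that of Tet2 holds 20. Over the full window of 300 bases Dnmt3b had 30 and Tet2 had 57, against a median of 7 over 32817 mouse windows. Fewer CpG sites were found in 88.3% of windows than in that of Dnmt3b and in 99.8% than in that of Tet2. The other members' windows ranged from 2, in the most upstream of the 3 windows of Dnmt1, to 47, in a window of Dnmt3a. No methylation was measured in these samples.

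A second set is shown because S-phase genes varied between the libraries and many of them carry E2F-type sites. A search for TTTCCCGC, TTTCGCGC, TTTGCCGC and TTTGGCGC on both strands found a match in 4 of the 15 member windows, 1 in each of 4 of the 10 members. These were Dnmt1, Uhrf1, Ezh2 and Suz12, and their 5 matches did not overlap one another. Of all windows 2.26% held a match, and of the 3834 windows with at least 30 CpG sites 5.03% did. The 30-base stretches around the matches are given 5′ to 3′ on the gene's strand, with the motif in capitals; the first motif of Dnmt1 reads on the other strand, as GCGCGAAA.
Dnmt1 chr9:20952824-20952853, minus strand: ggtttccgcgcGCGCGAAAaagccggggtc
Dnmt1 chr9:20952574-20952603, minus strand: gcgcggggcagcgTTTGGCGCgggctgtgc
Uhrf1 chr17:56304117-56304146, plus strand: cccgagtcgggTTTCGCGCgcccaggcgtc
Ezh2 chr6:47595009-47595038, minus strand: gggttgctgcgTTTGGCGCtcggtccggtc
Suz12 chr11:79992876-79992905, plus strand: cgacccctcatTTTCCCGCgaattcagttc

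A match is a run of letters and not a measured binding site. Eed, which varied with Uhrf1 across the libraries (below), had no match in its window, and neither did Dnmt3a, Dnmt3b or the TET genes.

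The batches differed in 3 of the 10 members: Dnmt3b and Ezh2 were higher and Tet2 was lower in batch 2. Across all 18279 genes tested, 61.7% were called between the batches, 28.4% higher and 33.4% lower. Calls of at least 2-fold made up 31% of genes, 11.3% higher and 19.8% lower, and among the members 1 such call was higher and 0 were lower. The median log2 fold change was 0.04 over the members and -0.03 over all genes. In 8 of the 10 members the 95% interval of the difference lay within 1.5-fold in either direction. The same number of members, 8, had an interval within 2-fold, as did 56.7% of all genes tested. The share of all genes within 1.5-fold was not computed, and the members were not matched to other genes in read count. Calls are from edgeR's quasi-likelihood test with treatment and batch as terms, at a Benjamini-Hochberg adjusted p of 0.05.

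**Figure D1:**
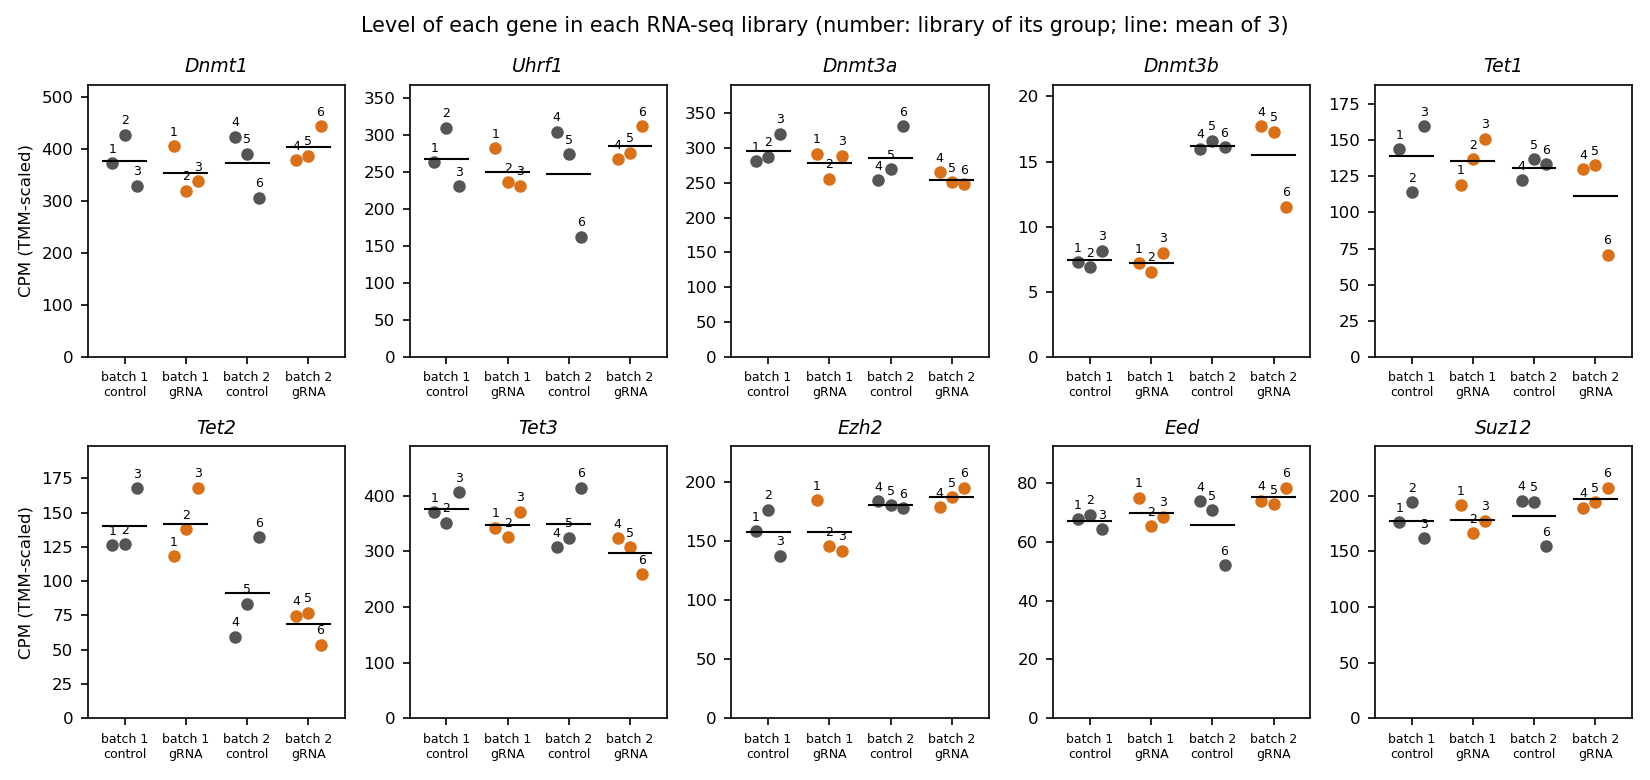
Level of each member in the 12 libraries in CPM (vertical axis), by batch and treatment; each point is 1 library, numbered as in the text, and each line is the mean of 3. Dnmt3b is the member whose batches do not overlap, and control 6 lies apart from the other batch 2 libraries for Uhrf1, Dnmt3a, Tet2, Eed and Suz12.

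Dnmt1 and Uhrf1, the pair that maintains methylation through replication, were not called between the batches. Dnmt1 lay at 319.7 to 427 CPM in batch 1 (median 355) and at 306 to 444 CPM in batch 2 (median 389). Uhrf1 lay at 231 to 309.9 CPM in batch 1 (median 249.8) and at 162.6 to 312 CPM in batch 2 (median 275). The ranges of both genes overlapped, and the lowest value of each in batch 2 was control 6. The log2 difference between batches was 0.09 ± 0.10 (SE) for Dnmt1 and 0.04 ± 0.14 for Uhrf1, with edgeR adjusted p of 0.466 and 0.83. The 95% interval for Uhrf1 ran from -0.26 to 0.33.

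Dnmt3b (ENSMUSG00000027478.16), a de novo methyltransferase that is prominent in early embryonic cells, was about 2-fold higher in batch 2. In batch 1 the controls held 7.28, 6.90 and 8.14 CPM and the gRNA libraries 7.18, 6.53 and 7.99 CPM. In batch 2 the controls held 16.0, 16.6 and 16.1 CPM and the gRNA libraries 17.7, 17.3 and 11.5 CPM. Every batch 2 library was above every batch 1 library, the lowest being gRNA 6. The log2 difference was 1.11 ± 0.13 (SE), with a 95% interval from 0.84 to 1.38, a 2.16-fold rise and an adjusted p of 3.36e-06 by edgeR. Of all genes tested, 29% had a larger difference in either direction, and in 41.6% the 6 libraries of each batch did not overlap, with batch 2 higher in 17.2%. The log2 rise was also called in the controls alone (1.13 ± 0.18, edgeR adjusted p = 0.00139) and in the gRNA libraries alone (1.13 ± 0.22, edgeR adjusted p = 0.00215). The gene had 52 to 156 reads per library in batch 1 and 159 to 317 in batch 2.

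Dnmt3c, a rodent copy of Dnmt3b that acts in male germ cells, shares much of its sequence, and reads of the copies may be split between them by the counting. It had 8 reads over all of batch 1 and 77 over all of batch 2. It passed the count filter through batch 2, so its direction was fixed by the filter and no test result is given. The antisense gene Dnmt3bos held 7 reads in batch 1 and 0 in batch 2. The strand setting of the counting is not given, so reads of Dnmt3b and its antisense partner cannot be told apart.

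Dnmt3a, the other de novo enzyme and the one associated with later neural development, was not called. It lay at 256 to 321 CPM in batch 1 and at 247.6 to 332 CPM in batch 2, and control 6 was its highest value in batch 2. The log2 difference was -0.09 ± 0.08 (SE; edgeR adjusted p = 0.304). The antisense gene Dnmt3aos had 56 reads in batch 1 and 2 in batch 2.

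**Figure D2:**
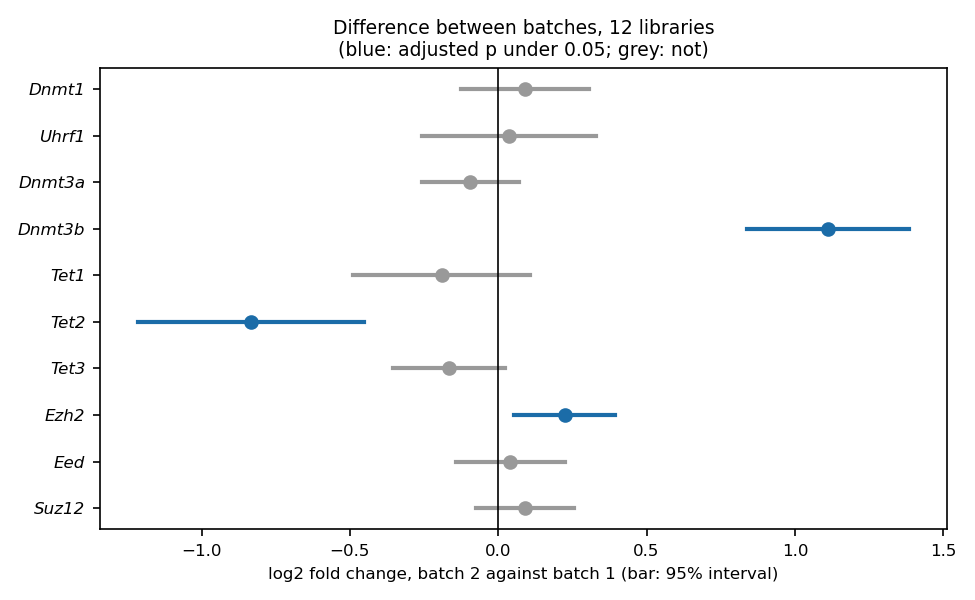
Log2 difference, batch 2 against batch 1, for each member (horizontal axis) with its 95% interval from the edgeR fit over 12 libraries. Dnmt3b (1.11) and Ezh2 (0.22) lie above 0 and Tet2 (-0.83) below it, while the intervals of the other 7 members span 0.

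Of the 3 TET genes only Tet2 was called. Tet2 (ENSMUSG00000040943.13), which lacks the CXXC domain of its relatives and works with separate CXXC partners, was lower in batch 2. In batch 1 the controls held 126.4, 127.1 and 167.9 CPM and the gRNA libraries 118.4, 138.0 and 168.3 CPM. In batch 2 the controls held 59.6, 83.5 and 132.0 CPM and the gRNA libraries 74.8, 76.9 and 53.7 CPM. Control 6, at 132.0 CPM, fell inside the batch 1 range and the other 5 batch 2 libraries fell below it; the highest batch 1 values were control 3 and gRNA 3. The log2 difference was -0.83 ± 0.18 (SE), with an interval from -1.21 to -0.45, a 1.78-fold fall and an edgeR adjusted p of 0.000941. Without control 6 it was -1.01 (adjusted p = 1.25e-05 by edgeR), and without control 3 and gRNA 3 together it was -0.65 (adjusted p = 0.00988 by edgeR).

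The fall of Tet2 was called in the gRNA libraries alone (-1.02 ± 0.17, edgeR adjusted p = 0.000795) and not in the controls alone (-0.61 ± 0.27, edgeR adjusted p = 0.116). The difference between these, tested as an interaction of treatment and batch, was -0.43 ± 0.35 with an unadjusted p of 0.235 and an adjusted p of 1 in edgeR, so a dependence on treatment was not shown. The group of controls in batch 2 contains control 6.

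Tet1 and Tet3, whose proteins can bind CpG-rich DNA through their own CXXC domain, were not called. Tet1 lay at 113.8 to 159.8 CPM in batch 1 and at 70.6 to 136.7 CPM in batch 2, the lowest being gRNA 6 (log2 difference -0.19 ± 0.14, edgeR adjusted p = 0.252). Tet3 lay at 325 to 406 CPM in batch 1 and at 258 to 414 CPM in batch 2 (-0.17 ± 0.09, edgeR adjusted p = 0.117). Its call depended on 1 library: without control 6 the difference was -0.23 and the edgeR adjusted p was 0.013.

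In the PRC2 core, Ezh2 (ENSMUSG00000029687.17), the catalytic subunit, was higher in batch 2. In batch 1 the controls held 158.5, 176.8 and 137.9 CPM and the gRNA libraries 185.0, 146.0 and 141.9 CPM. In batch 2 the controls held 184.0, 180.4 and 177.9 CPM and the gRNA libraries 178.9, 187.4 and 195.6 CPM. The batches overlapped through gRNA 1, and the 6 batch 2 values lay within a narrower range than those of batch 1. The log2 difference was 0.22 ± 0.08 (SE), a 1.17-fold rise with an edgeR adjusted p of 0.0242. This call was lost without gRNA 2 (0.20, edgeR adjusted p = 0.0582), without gRNA 3 (0.19, edgeR adjusted p = 0.0614) and in the controls alone (0.21, edgeR adjusted p = 0.188).

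Eed, which binds the methylated histone tail and stimulates the enzyme, lay at 64.3 to 75.0 CPM in batch 1 and 52.1 to 78.5 CPM in batch 2. Suz12, the scaffold of the complex, lay at 162.0 to 194.4 CPM and 154.6 to 207.4 CPM. For both the lowest value was control 6 and the batches overlapped. Their log2 differences, 0.04 ± 0.09 and 0.09 ± 0.08 (SE), were not called (edgeR adjusted p = 0.708 and 0.336).

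None of the 10 members was called between gRNA and control, over both batches or within either. Of all genes tested 0% were called in each of these contrasts. Of 18279 genes tested over both batches 243 had an unadjusted p under 0.05 in edgeR, and DESeq2 and limma-voom also called 0. Within batch 1 and batch 2, edgeR gave 147 and 116 genes with an unadjusted p under 0.05, and DESeq2 and limma-voom again called 0. In the fit over both batches the members' log2 differences ran from -0.20 for Tet2 to 0.13 for Eed, and all 10 intervals lay within 1.5-fold. Of all genes tested 87.3% had an interval within 2-fold, and the share within 1.5-fold was not computed. The smallest unadjusted p was 0.0648 in edgeR, for Tet3 (-0.18 ± 0.09), with an adjusted p of 1.

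**Figure D3:**
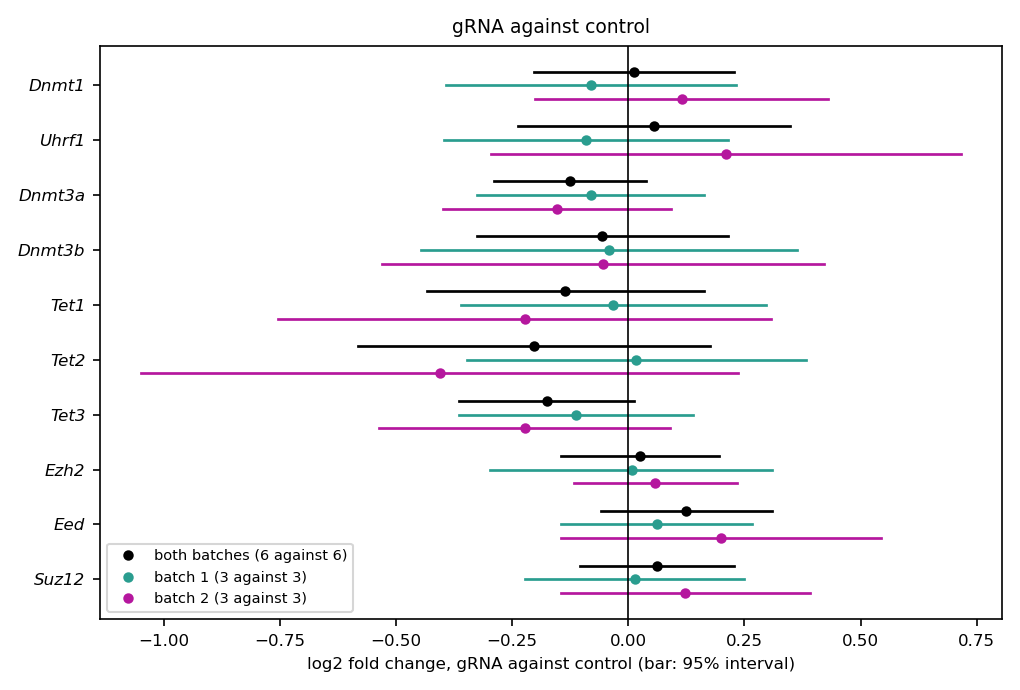
Log2 difference, gRNA against control, for each member with its 95% interval (horizontal axis), over both batches and within batch 1 and batch 2. All intervals span 0, and those of batch 2 are the widest for Tet2, Tet1 and Uhrf1.

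Within batch 1 the members' differences ran from -0.11 for Tet3 to 0.06 for Eed. Within batch 2 they ran from -0.41 for Tet2 to 0.21 for Uhrf1, and the interval for Tet2 reached from -1.05 to 0.24. The batch 2 controls include control 6, which was low for Uhrf1 and high for Tet2. With gRNA 6 and control 6 left out together, the difference over both batches was 0.04 for Tet2 and -0.09 for Uhrf1, opposite in sign to the values with them. In simulated data of the same depth and spread, 73.1% of genes changed 2-fold and 26.9% of genes changed 1.5-fold were recovered in the contrast over both batches, and 37.3% and 17.9% within batch 2. The changed genes were drawn at random from all genes tested, at any read count, so these shares do not describe the members.

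Variation between libraries of the same group was described next. Each library's log2 level was taken as its deviation from the mean of its batch and treatment, over 12 libraries that share 4 group means, so the values below are descriptions with no test. Uhrf1 varied with Eed (Pearson r = 0.96, Spearman rho = 0.88), with Suz12 (r = 0.95, rho = 0.92) and with Dnmt1 (r = 0.94, rho = 0.92). Tet2 ran against Uhrf1 (r = -0.91, rho = -0.87) and with Tet3 (r = 0.91, rho = 0.84). Dnmt3b varied with Tet1 (r = 0.92, rho = 0.86) and had r = -0.29 with Uhrf1 (rho = -0.40, r = -0.50 without libraries 6) and r = -0.40 with Dnmt1 (rho = -0.30). Of 45 pairs of members, 9 (20%) had r of 0.8 or more and 5 (11.1%) had r of -0.8 or less. Over all pairs of 11451 genes with a mean count of at least 50 these shares were 4.53% and 2.88%. That set was not matched to the members in read count, and the part of read count in the shares was not tested.

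**Figure D4:**
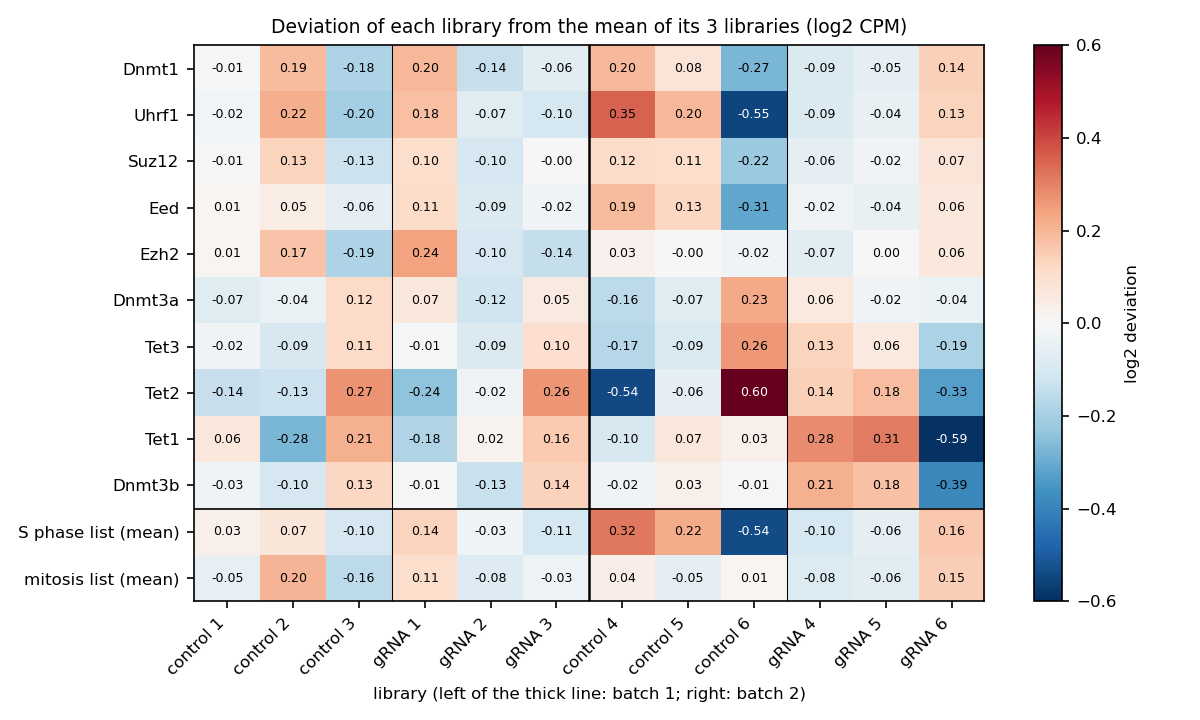
Deviation of each library (columns) from the mean of its batch and treatment, in log2 CPM, for the members and the mean of the S-phase and mitosis lists (rows; red above the mean, blue below). In control 6, Uhrf1 lies at -0.55 and Tet2 at 0.60, and the row of the S-phase mean follows that of Uhrf1.

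The level of S-phase genes moved along the same axis. The mean deviation of 29 S-phase genes had r = 0.97 with Uhrf1 and r = -0.92 with Tet2. Without libraries 3 and 6 of both groups, over 8 libraries, these values were 0.93 and -0.85. Read totals followed this axis in part. Control 2 and gRNA 1 had the fewest reads of batch 1 (8414028 and 10515276). Their Uhrf1 deviations were the highest of their groups (0.22 and 0.18). Control 6 and gRNA 6 had nearly equal totals (13854672 and 13856001), with Uhrf1 deviations of -0.551 and 0.133. The part of depth in these values was not tested. Ezh2 had r = 0.41 (rho = 0.68) with the S-phase mean, which was 0.56 without libraries 6, and r = 0.82 (rho = 0.80) with the mean of 16 mitosis genes. In bulk RNA a change in the share of cells in a phase and a change in RNA per cell cannot be told apart. Between the batches, 6 S-phase genes rose, 0 fell and 23 were not called, with a median log2 difference of 0.11. Without control 6, 15 rose, and 1 fell without gRNA 2, gRNA 3, control 3 or gRNA 6. Of the mitosis genes 1 rose, Aurkb (0.33 ± 0.07), and 1 fell, Cenpf (-0.27 ± 0.08). Without control 2, 4 mitosis genes rose, without control 6, 2 rose and 2 fell, and without gRNA 6, 2 fell.

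Among 11451 genes with a mean count of at least 50, the gene most like Uhrf1 in its deviations was Mthfd1 (r = 0.999 over 12 libraries), a folate enzyme, followed by Atic (r = 0.995), an enzyme of purine synthesis. Dnmt1 was most like Hat1 (r = 0.992), a histone acetyltransferase, and Eed was most like Tsr1 (r = 0.99), a ribosome assembly factor. Tet2 was most like Ubr2 (r = 0.993) and Foxn3 (r = 0.991), Tet3 most like Kdm7a (r = 0.983), a histone demethylase, and Dnmt3b most like Dennd6a (r = 0.979). For Ezh2 the nearest gene was Srsf6 (r = 0.981), a splicing factor. These were picked as the extremes of many genes. All genes share the depth of each library, which differed between libraries, and the part of depth in these values was not tested.

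The lists that follow hold partners and targets of the members, and their counts stand beside the 61.7% of all genes called. Among 10 tested cofactors of DNA methylation, 3 rose and 1 fell between the batches, with a median of 0.00. Of the 3, Dnmt3c passed the count filter through batch 2, which fixed its direction. Without control 6, 2 fell and the median was 0.13. Nsd1, whose histone mark recruits DNMT3A, fell by 1.45 ± 0.07 on the log2 scale (edgeR adjusted p = 9.17e-10), and Zfp57, which protects methylation at imprinted loci, rose by 1.23 ± 0.16 (edgeR adjusted p = 9.3e-06). Of 8 methyl-CpG readers 3 rose and 2 fell, and 1 fell without gRNA 3, control 2, control 3 or gRNA 5. Zbtb38 fell by 0.69 ± 0.13 and Mbd4, a glycosylase for mismatches at CpG sites, rose by 0.45 ± 0.11.

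Among 15 genes of demethylation and TET partners, 8 rose and 3 fell, with a median of 0.36. Cxxc4, a CXXC partner of TET2, fell by 2.42 ± 0.19 (SE, log2; edgeR adjusted p = 6.04e-08) and its relative Cxxc5 rose by 0.58 ± 0.09 (edgeR adjusted p = 4.22e-05). Neil1, a glycosylase of base excision repair, rose by 1.02 ± 0.15, while Tdg, the glycosylase that removes oxidised methylcytosine, fell by 0.45 ± 0.09. Tet2 and Cxxc4 were both lower in batch 2.

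**Figure D5:**
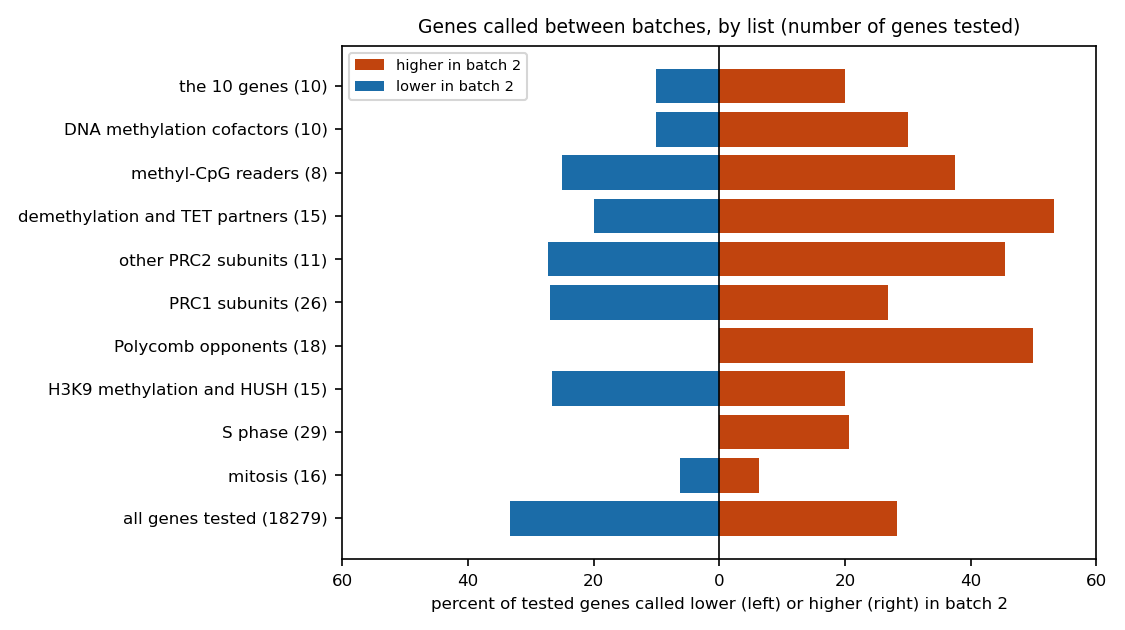
Percent of tested genes in each list called higher or lower in batch 2 against batch 1 (horizontal axis; higher to the right, lower to the left), with the 10 members and all genes tested for reference. No tested gene of the Polycomb opponents (18) or the S-phase list (29) was called lower, and the 10 members had 2 calls higher and 1 lower.

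PRC2 contains accessory subunits that steer the core. These were listed with other PRC2 genes, Ezh1, Rbbp4, Rbbp7 and Ezhip, and of the 11 genes tested 5 rose while 3 fell. The number that rose was 2 without gRNA 5 and 3 without gRNA 2, gRNA 4, control 1, control 2 or control 5. Phf19, a reader that brings PRC2 to chromatin, fell by 1.37 ± 0.12 (SE, log2; edgeR adjusted p = 1.92e-07), and Lcor, whose locus also encodes a PRC2 subunit, fell by 1.10 ± 0.10, from 100.3 ± 14.0 CPM (SD, n = 6) to 46.8 ± 4.12 CPM. Epop rose by 1.32 ± 0.16 and Ezh1, the alternative catalytic subunit, by 0.62 ± 0.17. The core genes Ezh2, Eed and Suz12 differed by at most 0.22 on the same scale.

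Of 26 genes of Polycomb repressive complex 1, which compacts chromatin and ubiquitylates histone H2A, 7 rose and 7 fell. Mga fell by 1.22 ± 0.07 (SE, log2), Cbx2 rose by 0.77 ± 0.09 and Pcgf2 rose by 1.92 ± 0.27. Of 18 genes that oppose Polycomb, 9 rose and none fell, with a median of 0.23. Without control 6, 1 fell and the median was 0.14. Asxl3, of the complex that removes the H2A mark, rose by 1.38 ± 0.16, Kdm6a, an H3K27 demethylase, by 0.46 ± 0.11, Men1 by 0.36 ± 0.06 and Cxxc1 by 0.29 ± 0.06. Of 15 genes of H3K9 methylation and the HUSH silencing complex, 3 rose and 4 fell, among them Tasor, which fell by 0.79 ± 0.06, Atf7ip, which fell by 0.72 ± 0.07, and Pphln1, which fell by 0.30 ± 0.07.

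Several groups of genes that these systems are known to keep silent were also listed. The 39 Hox genes summed to 0 to 1.70 CPM in batch 1 and to 174.1 to 188.3 CPM in batch 2. The 10 that passed the count filter were all of the Hoxa cluster and passed it through batch 2, so their direction was fixed by the filter and no count of calls is given. Hoxa5 was at 0.02 ± 0.04 CPM in batch 1 and 49.96 ± 2.52 CPM in batch 2 (SD, n = 6). A list of 35 genes, regulators of non-neural development with the cell-cycle inhibitors Cdkn2a and Cdkn2b, summed to 43.6 to 69.9 CPM in batch 1 and 115.6 to 156.4 CPM in batch 2. Of these 14 passed the filter, some through 1 batch only. Barx1 passed it through batch 2, which fixed its direction, and went from 0.04 ± 0.06 to 20.2 ± 1.51 CPM.

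Cdkn2a, a cell-cycle inhibitor and a long-known target of Polycomb, was lower in batch 2. It lay at 9.15 to 17.3 CPM in the 6 libraries of batch 1, and no read was counted in any library of batch 2, at least 404-fold lower against a floor of 3 counts over the batch. Cdkn2a passed the count filter through batch 1 only, so its direction was fixed by the filter and no test result is given. Its neighbour Cdkn2b also fell (log2 difference -0.58 ± 0.23, edgeR adjusted p = 0.0387), from 24.4 to 36.5 CPM in batch 1 to 9.76 to 35.3 CPM in batch 2.

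The 23 imprinted genes, whose parental copies differ in DNA methylation, summed to 1463 to 1989 CPM in batch 1 and 1455 to 1672 CPM in batch 2. Of the 17 tested, 9 fell, 5 rose and 3 were not called, where 61.7% of all genes were called. Dlk1 had no read in batch 2 and passed the count filter through batch 1 only. Ndn fell from 36.2 ± 4.54 to 0.75 ± 0.14 CPM (SD, n = 6) and Plagl1 from a median of 126.2 to 14.4 CPM. Nnat fell by 3.58 ± 0.20, while Airn rose by 1.64 ± 0.20 and Peg3 by 0.63 ± 0.08 (SE, log2). Of 30 germline genes, many of which are held silent by promoter methylation, only 6 passed the count filter, and the list summed to 33.7 to 48.0 CPM in batch 1 and 11.3 to 16.5 CPM in batch 2. Tex15 fell from 31.3 ± 5.96 to 2.78 ± 0.89 CPM. Sycp1 was at 0.03 ± 0.06 CPM in batch 1 and 2.96 ± 1.25 CPM in batch 2. It passed the count filter through batch 2 only, which fixed its direction. None of these lists had a call between gRNA and control.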

How the data were processed

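The authors deposited unnormalized counts of reads for each Ensembl gene; per the submitters' processing notes the tools were HTSeq, STAR, Trimmomatic and SAMtools and the build GRCm39. Versions of these RNA-seq tools and the counting's strand setting were not given in the sources used here. RNA was purified with RNeasy and libraries were ribosome-depleted and stranded, per the labels' protocols. Symbols were matched to 51880 identifiers (90.8%).

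The whole table was fitted in edgeR 4.0.16 (R 4.3.3): filterByExpr (minimum count 10), TMM scaling, quasi-likelihood test, Benjamini-Hochberg adjustment at 0.05. The model held treatment and batch; each batch was fitted alone and the interaction was tested. CPM are edgeR's, on TMM-scaled library totals. DESeq2 1.42.0, limma-voom 3.58.1, other scalings, other filters and left-out libraries were alternatives. Scripts were tested on simulated data. For each list of related genes, names were taken from the 3 with the smallest p, or by role, and not all are printed. Cdkn2b, the antisense genes, Xist and the Y-linked genes were looked at after their values were seen. Members and lists were chosen with earlier results of these data known.

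The 4 footprint libraries were not used: their table names transcripts only, and its library names match no label. No gene lengths were used, so levels are not compared between genes. Reads without molecular identifiers are not independent molecules, so the floor for 0 counts covers counting error only.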

Additional observations from a re-analysis of the deposited data

Results flagged for a closer look

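In 6 of the 20 combinations of a member with a batch, a single library lay far from the other 5 by Dixon's criterion. Chance meets it in about 1 in 20 independent groups. The members varied together across the libraries, so the 20 combinations are not independent, and the share over all genes was not computed. All 6 lay in batch 2 and came from control 6 or gRNA 6. In control 6, Uhrf1 was at 162.6 CPM against 267.6 to 312.2 CPM in the other 5 libraries, Eed at 52.08 against 70.77 to 78.46 CPM, and Suz12 at 154.6 against 189.3 to 207.4 CPM. Dnmt3a was high there, at 331.6 against 247.6 to 269.6 CPM. In gRNA 6, Dnmt3b was at 11.53 CPM against 16.0 to 17.73 CPM and Tet1 at 70.63 against 122.1 to 136.7 CPM. The summed S-phase level was 2325 CPM in control 6 and 4344 CPM in gRNA 6, the lowest and the highest of batch 2; the part of this in the members' values was not tested.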

How the results depend on the processing

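The rise of Dnmt3b kept its call under every alternative run, from 1.07 to 1.23 on the log2 scale. With the control libraries only, 6730 genes were called between the batches against 11282, with 1 member higher and 0 lower; over left-out single libraries 1 to 2 members were called higher and 1 to 2 lower, and 2 lower with gRNA 6 and control 6 left out together. With library-size scaling Suz12 was also called higher (0.17, edgeR adjusted p = 0.0449). Without the low-count filter, edgeR called 42 genes for the difference of the gRNA effect between batches, 1 in batch 1 and 1 over both batches; no member was called for gRNA under any alternative (smallest adjusted p 0.825). Counts in the lists of related genes moved more: with control libraries only, 0 S-phase genes, 2 other PRC2 subunits and 4 Polycomb opponents were called higher, against 6, 5 and 9. Signs turned for uncalled members. Between batches with control libraries only, Eed was -0.021 and Uhrf1 -0.105, and Uhrf1 ran from -0.018 to 0.16 over left-out libraries. For gRNA over both batches without gRNA 6 and control 6, Dnmt1 was -0.088, Dnmt3b 0.018, Suz12 -0.005, Tet2 0.039 and Uhrf1 -0.094. In batch 1 Ezh2 was -0.005 with DESeq2's size factors and with its Wald test. Over left-out libraries, the gRNA difference over both batches ran from -0.053 to 0.062 for Dnmt1, -0.103 to 0.028 for Dnmt3b, -0.027 to 0.064 for Ezh2 and -0.061 to 0.117 for Uhrf1. In batch 1 it ran from -0.186 to 0.016 for Dnmt1, -0.133 to 0.035 for Dnmt3b, -0.122 to 0.091 for Ezh2, -0.047 to 0.079 for Suz12, -0.159 to 0.078 for Tet1, -0.135 to 0.169 for Tet2 and -0.186 to 0.022 for Uhrf1. In batch 2 it ran from -0.025 to 0.215 for Dnmt1, -0.163 to 0.109 for Dnmt3b, -0.377 to 0.007 for Tet1 and -0.03 to 0.386 for Uhrf1. The difference between batches ran from -0.154 to 0.047 for Dnmt3a, -0.125 to 0.154 for Dnmt3b, -0.001 to 0.232 for Eed, -0.02 to 0.182 for Ezh2, -0.343 to 0.042 for Tet1 and -0.2 to 0.026 for Tet3. The cause was not tested. No paired analysis was possible because the RNA-seq labels carry no replicate numbers. Alternatives for footprints and per-length levels were not run. With 3 libraries per group and batch, 37.3% of genes changed 2-fold, drawn at random from all genes tested, were recovered in simulated batch 2 data.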
